A study of Mus musculus with 4 samples.

Results

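The acyl-CoA thioesterases described here were Acot1, Acot2, Acot3, Acot4, Acot7 and Acot12, 6 of the 30038 gene names on a one-colour Agilent mouse array. Every non-control probe carrying one of these names was taken, which gave 7 of the 41174 distinct probes (2 for Acot4 and 1 for each other gene). All 7 probes passed the filter on dim signals, which kept 16422 genes. On mm9, the build of the array files, the probes lie at chr12:85334071-85334130 (Acot2), chr12:85358452-85358511 (Acot1), chr12:85384162-85384221 and chr12:85384821-85384880 (Acot4), chr12:85399588-85399647 (Acot3), chr4:151645802-151645861 (Acot7) and chr13:91925586-91925645 (Acot12). Whether they fall in coding or untranslated exons was not analysed here. RNA had been hybridised from hepatoblasts, the fetal progenitors of hepatocytes and bile duct cells, taken from the liver at embryonic day 13 (E13, 2 samples), and from hepatocytes of mice 8 weeks old (adult, 2 samples). All samples came from C57BL/6NCr mice and carried no treatment or engineered allele per the labels. The sources used here do not give how the cells were isolated, the sex of the mice or the number of animals behind a sample. Nothing in the labels says that samples of one group are separate animals, so p-values here reflect the scatter of these samples alone, and that scatter may be technical.

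Acyl-CoA thioesterases split a fatty acyl-CoA into the free fatty acid and coenzyme A. They thereby oppose the acyl-CoA synthetases and set how much activated fatty acid and free coenzyme A a compartment holds. Type I enzymes (Acot1 to Acot6 in the mouse) are close relatives encoded side by side and differ in where they act: Acot1 in the cytosol, Acot2 in mitochondria, and Acot3, Acot4 and Acot6 in peroxisomes. Acot7 and Acot12 are type II enzymes of another fold and act mainly in the cytosol, Acot7 being best known from the brain and Acot12 as an acetyl-CoA hydrolase of the liver. In the adult liver, transcripts of the type I genes are known to be induced by fasting and by agonists of PPAR alpha, the nuclear receptor that controls fatty acid oxidation.

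The type I genes lie in the order Acot2, Acot1, Acot4, Acot3, Acot5 and Acot6 along chromosome 12, from base 83987861 to base 84109783 of GRCm38.p6 in RefSeq's annotation. Acot7 lies on chromosome 4 and Acot12 on chromosome 13 of the same assembly. RefSeq's promoter table held a window of 300 bases for all 6 genes, set at a transcript's start that need not be the start of the annotated gene. For Acot4 (gene start 84037254) and Acot7 (gene start 152178100) the window lies within the annotated gene, and the Acot12 window reaches across the gene's start at 91741326. The windows of the 4 clustered genes, whose signals were all higher at E13, are shown with that of Acot12, whose signal was higher in the adult. All 5 genes lie on the plus strand, and the windows cover chr12:83987611-83987910 (Acot2), chr12:84009252-84009551 (Acot1), chr12:84038129-84038428 (Acot4), chr12:84051894-84052193 (Acot3, the first of 2 windows listed) and chr13:91741271-91741570 (Acot12). Capitals mark CCAAT and AGGTCA, the core motif of nuclear receptors, on either strand, so that ATTGG and TGACCT are capitalised too.
Acot2: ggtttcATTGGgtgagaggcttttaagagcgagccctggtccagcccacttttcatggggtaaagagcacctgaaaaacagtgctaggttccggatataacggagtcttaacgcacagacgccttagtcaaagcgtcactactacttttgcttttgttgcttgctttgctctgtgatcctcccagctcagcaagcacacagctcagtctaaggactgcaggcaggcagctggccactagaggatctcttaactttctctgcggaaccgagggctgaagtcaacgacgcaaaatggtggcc
Acot1: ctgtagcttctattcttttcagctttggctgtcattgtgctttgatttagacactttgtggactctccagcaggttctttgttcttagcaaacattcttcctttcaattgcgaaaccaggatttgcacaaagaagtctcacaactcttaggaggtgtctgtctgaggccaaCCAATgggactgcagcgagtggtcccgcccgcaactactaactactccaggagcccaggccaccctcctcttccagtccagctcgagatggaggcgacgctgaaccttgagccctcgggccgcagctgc
Acot4: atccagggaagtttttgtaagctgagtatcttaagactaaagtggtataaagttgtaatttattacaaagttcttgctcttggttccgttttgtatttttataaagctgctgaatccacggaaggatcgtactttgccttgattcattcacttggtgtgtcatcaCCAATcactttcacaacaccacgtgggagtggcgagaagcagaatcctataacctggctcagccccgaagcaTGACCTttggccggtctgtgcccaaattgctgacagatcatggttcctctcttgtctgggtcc
Acot3: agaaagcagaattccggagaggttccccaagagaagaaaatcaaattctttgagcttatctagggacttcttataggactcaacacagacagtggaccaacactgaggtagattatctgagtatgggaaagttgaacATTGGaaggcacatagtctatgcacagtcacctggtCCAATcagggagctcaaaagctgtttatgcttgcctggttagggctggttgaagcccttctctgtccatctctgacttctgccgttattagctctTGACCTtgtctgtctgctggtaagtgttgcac
Acot12: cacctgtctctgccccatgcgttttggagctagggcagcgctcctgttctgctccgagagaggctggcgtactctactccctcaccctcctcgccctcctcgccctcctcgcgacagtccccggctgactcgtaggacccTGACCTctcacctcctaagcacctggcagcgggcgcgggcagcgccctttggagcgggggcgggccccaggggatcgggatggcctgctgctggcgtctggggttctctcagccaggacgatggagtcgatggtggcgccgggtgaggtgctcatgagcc

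CCAAT occurred in the windows of the 4 clustered genes shown, 2 times in Acot3 and 1 time in each other, and in neither Acot7 nor Acot12. The window of Acot5, the first of 2 listed, also held CCAAT 1 time and AGGTCA 2 times. Acot5 lies in the same cluster but was not well above background in either group. CCAAT was present in 37.4% of the 32851 RefSeq mouse promoter windows of the same length, counted on both strands. Among the 6 genes AGGTCA occurred 1 time each in Acot3, Acot4 and Acot12, against 16.3% of all windows with a match. A perfect form of the PPAR element, read as 2 copies of the same motif with 1 base between them, had no match in the 6 windows. It matched only 0.0396% of all windows, so nothing is read from its lack here. Imperfect forms were not sought. Acot4 had 3 matches to TATAAA (13.6% of all windows) and 1 to CACGTG (7.15% of all windows). GGGCGG matched 1 time in Acot1, 2 times in Acot7 and 1 time in Acot12 (35.7% of all windows). The Acot12 window was richest in CpG among the 6, with 22 CpG and a GC content of 68%, while Acot3 had 2 CpG and 45.7% GC. All windows had a median of 7 CpG and 52.7% GC. These matches describe letters in the windows and are not evidence of binding.

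Values below are log2 signals relative to the 75th percentile of all probes on the same array, so 0 is the level of that percentile and 1 unit is a doubling. Replicate 1 is given before replicate 2. The fold is the ratio of the group means on this scale, and the difference is adult minus E13. The 6 genes were chosen by their log2 signals in adult and E13 cells, the values given below, so these are a description and carry no test. Levels of different genes come from different probes and are not set against each other. In RNA of many cells, fewer cells of a type and less RNA per cell cannot be told apart.

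Acot1, Acot2, Acot3, Acot4 and Acot7 were higher in E13 hepatoblasts and Acot12 was higher in adult hepatocytes, on every probe and without overlap between the arrays of the groups. The differences ran from 1.59-fold for Acot7 to 6.82-fold for Acot2 towards E13, with Acot3 known only as a bound, and reached 8.70-fold towards the adult for Acot12. Of all 16422 genes tested, 43.1% had both adult arrays below both E13 arrays and 42.7% had both above, and 64.8% were called in either direction by limma at a Benjamini-Hochberg adjusted p under 0.05. A lack of overlap was therefore common, and nothing is read from its count among the chosen genes.

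Acot1, the cytosolic long-chain enzyme, measured 5.57 and 5.56 on the E13 arrays and 3.06 and 3.22 on the adult arrays. The E13 arrays were nearly equal and lay far above both adult arrays. The means were 5.57 ± 0.012 (SD, n = 2) and 3.14 ± 0.11 (SD, n = 2), a difference of -2.42 or 5.36-fold. The probe was bright in both groups, with processed signals of 25573 and 21016 at E13 and 1968.4 and 2478.8 in the adult. Over the 4 arrays, the lowest signal well above background on an array was 19.5 to 24.96. Acot1 transcript was therefore well measured in adult hepatocytes too.

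Acot2, the mitochondrial enzyme, measured -0.32 and 0.49 at E13 and -2.87 and -2.49 in the adult. Its E13 arrays differed more from each other than those of Acot1, yet both lay above both adult arrays. The means were 0.088 ± 0.57 and -2.68 ± 0.27 (SD, n = 2 each), a difference of -2.77 or 6.82-fold. The adult signals of 32.2 and 47.3 were dim, close to the lowest signal well above background on those arrays.

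Acot3, a peroxisomal enzyme, measured -1.37 and -1.05 at E13. Its adult values of -5.67 and -3.40 were not well above background on either array, so they give only an upper limit. With each adult array set to its lowest value well above background where the probe was dimmer, Acot3 was at least 4.71-fold higher at E13. The fitted difference of -3.32 was -2.19 without adult replicate 1 and -4.45 without adult replicate 2.

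Acot4, the peroxisomal enzyme known for its action on succinyl-CoA, had 2 probes, and both were higher at E13. The brighter probe measured 1.88 and 1.79 at E13 and -0.18 and 0.89 in the adult. The other probe measured 0.32 and 0.42 at E13 and -1.62 and -1.16 in the adult. On each probe the E13 arrays lay close together and above both adult arrays, which were further apart on the brighter probe. The probes gave 2.79-fold and 3.39-fold, with differences of -1.48 and -1.76. Without adult replicate 1 the difference of the brighter probe was -0.95, and without adult replicate 2 it was -2.02.

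Acot7, the type II enzyme of the brain that prefers long-chain and arachidonoyl-CoA, measured 3.21 and 3.33 at E13 and 2.51 and 2.69 in the adult. The groups did not overlap, although the gap was the smallest of the 6 genes. The means were 3.27 ± 0.091 and 2.60 ± 0.13 (SD, n = 2 each), a difference of -0.67 or 1.59-fold. Of the genes tested, 5191 had a larger difference towards E13, so Acot7 lay within the bulk of the genes that were higher there. The corresponding counts were 1180 for Acot2, 1445 for Acot1 and 2779 for Acot4, all by fitted differences, in which dim genes take part. No such place is given for Acot3, known only as a bound.

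Acot12, the acetyl-CoA hydrolase of the liver, ran the other way. It measured 0.81 and 0.50 at E13 and 3.60 and 3.95 in the adult. Both E13 arrays were well above background, and both adult arrays were far above them. The means were 0.65 ± 0.22 and 3.78 ± 0.24 (SD, n = 2 each), a difference of 3.12 or 8.70-fold, and 976 genes had a larger difference towards the adult.

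**Figure D1:**
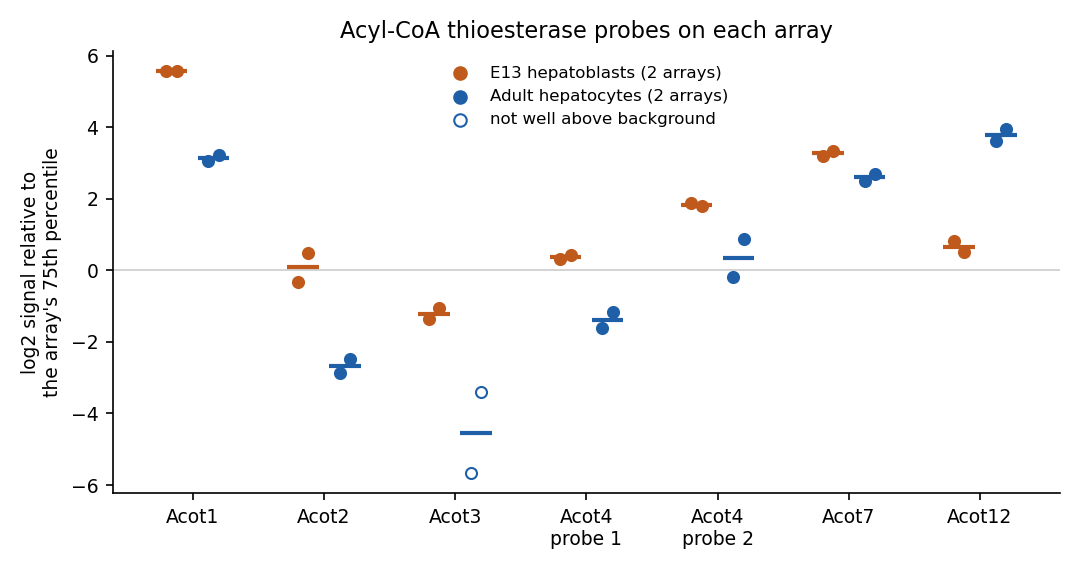
Log2 signal, with the array's 75th percentile at 0 (vertical axis), for the 7 probes of the 6 genes, with 1 point per array, 2 arrays per group and a bar at each group mean. Points of E13 lie above those of the adult for Acot1, Acot2, Acot3, both probes of Acot4 and Acot7, and below them for Acot12, and the Acot3 adult values are marked as not well above background.

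The scaling of the arrays moved the sizes of these differences but not their directions in any setting tried. Scaling to 7 spike-in control probes in place of the 75th percentile shifted every difference by -1.25 and took the median over all genes from -0.0097 to -1.26. Under it Acot12 stood at 1.87 and the other 5 genes between -4.58 (Acot3) and -1.93 (Acot7). Normexp, another background correction, moved the median over all genes to 0.21. It gave -0.99 for Acot3 and -1.68 for Acot2, whose adult signals were at or near background, and -2.56 for Acot1. Quantile normalization, under which the median over all genes was -0.12, gave -0.96 for Acot7, -2.89 for Acot1 and 2.91 for Acot12.

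**Figure D2:**
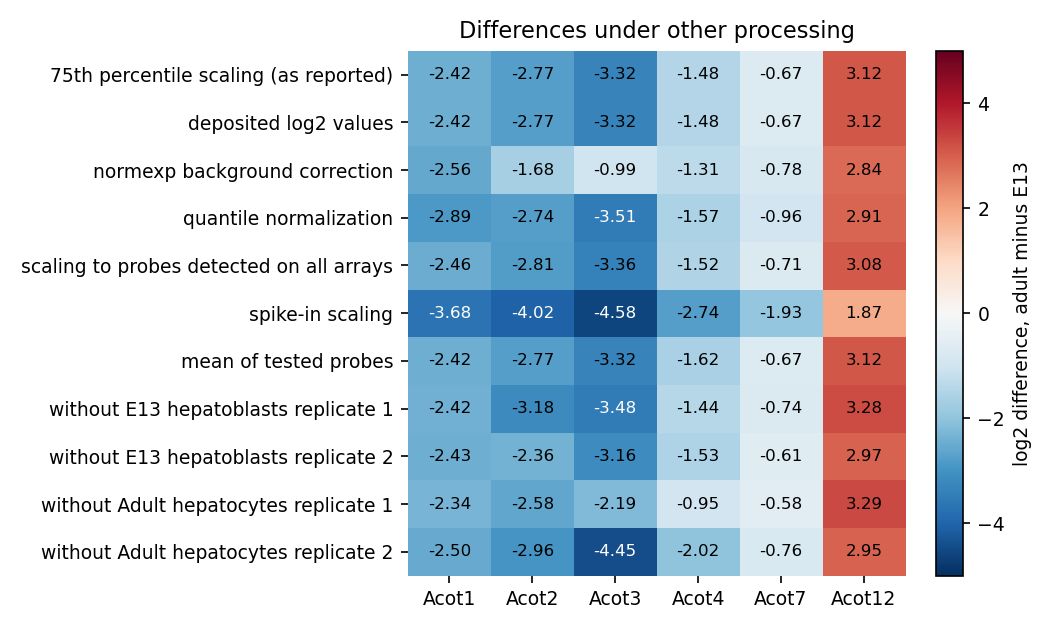
Log2 difference, adult minus E13 (colour, with the value printed in each cell), of each of the 6 genes (columns) under each processing setting (rows), including those that leave out 1 array. Acot12 stays above 0 and the others stay below 0 in every setting shown, while Acot3 ranges from -0.99 to -4.58. Settings that leave out an array could not turn a sign, since the groups do not overlap.

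To place each pattern, the 2 tested genes with the smallest Euclidean distance over the 4 arrays, after centring each gene on its own mean, were found. Acot1 was nearest to Dna2, a helicase and nuclease of DNA replication (distance 0.021), and Amot, angiomotin (0.057). Acot2 was nearest to Espn and Ppfia2 (0.143 and 0.189), neither of which was well above background on any adult array, so these matches rest on dim values. Acot4 was nearest to Alpl, an alkaline phosphatase, and Ppargc1a, a transcriptional coactivator of oxidative metabolism (0.111 and 0.115). Acot7 was nearest to Cdk2ap1 (0.0176) and to the gene listed as D19Bwg1357e (0.0195). Acot12 was nearest to Lamp2, a lysosomal membrane protein, and Slc7a2, a cationic amino acid transporter (0.0559 and 0.0618). With 4 arrays in 2 groups, a small distance needs a like difference between the groups. No neighbour was sought for Acot3, which was not well above background on all arrays.

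The remaining thioesterases on the array ran mostly towards the adult under the 75th percentile scaling. Spike-in scaling, which shifted every difference by -1.25, put most of them below 0. Of 17 such genes listed, 13 were tested, and 9 were called higher in the adult, 2 higher at E13 and 2 neither way by limma at a Benjamini-Hochberg adjusted p under 0.05. Among all genes tested, 32.1% were called higher in the adult and 32.8% higher at E13. The median difference of the 13 genes was 1.05, against -0.0097 over all genes. With spike-in scaling 3 were called towards the adult and 4 towards E13, 9 of the 13 differences were below 0 and the median was -0.21. That scaling called 1981 of all 16422 genes towards the adult and 11373 towards E13, with a median of -1.26. The spike-in counts of the lists below are to be set against these. Leaving out either E13 array lowered the count of 9 called towards the adult, as it lowered that over all genes.

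Baat, which conjugates bile acids and is related to the type I enzymes, rose most. It measured -1.62 and -2.20 at E13 and 5.49 and 5.75 in the adult, a difference of 7.53 ± 0.25 (SE, limma, Benjamini-Hochberg adjusted p = 8.8e-05). Both E13 arrays were low and both adult arrays were high.

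Acot11, a type II enzyme known from brown fat, measured -3.47 and -3.52 at E13 and -0.58 and 0.72 in the adult (limma difference 3.57 ± 0.45 SE, Benjamini-Hochberg adjusted p = 0.00276). Its adult arrays stood apart from each other, though both lay above E13. A second Acot11 probe was too dim to be tested. Them4, a mitochondrial thioesterase, differed by 2.25 ± 0.19 (SE, limma, Benjamini-Hochberg adjusted p = 0.000791).

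Smaller differences towards the adult were called for Hibch of valine breakdown (1.28), the depalmitoylating enzymes Lypla1 (1.13) and Lypla2 (1.05), Acot13 (1.08), the peroxisomal Acot8 (0.84) and the mitochondrial Acot9 (0.76). Under spike-in scaling Hibch stood at 0.023 and was not called, and the other 5 took the opposite sign. Quantile normalization lost the calls of Acot13 and Lypla2. Acot9 lay at the threshold, with a Benjamini-Hochberg adjusted p of 0.0497 by limma. Leaving out either E13 array lost the calls of Acot9, Lypla1 and Lypla2, leaving out E13 replicate 2 that of Acot8, and leaving out adult replicate 1 that of Acot9.

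Acot6, the last gene of the type I cluster, was called higher at E13. It measured 0.18 and 0.23 at E13 and -1.80 and -1.41 in the adult (limma difference -1.81 ± 0.19 SE, Benjamini-Hochberg adjusted p = 0.00157). The groups did not overlap, as for its neighbours in the cluster, although only 1 of its 3 probes was bright enough to be tested. Ppt2, a lysosomal thioesterase, was the other gene called higher at E13 (-0.57 ± 0.16 SE, limma, Benjamini-Hochberg adjusted p = 0.0317), a call lost without either E13 array or without adult replicate 2. Ppt1, which removes palmitate from proteins in lysosomes, and Mcat of mitochondrial fatty acid synthesis had differences of 0.39 and -0.09 and were not called, although a second Ppt1 probe was called higher in the adult, as the first was without adult replicate 1. Acot5, Acot10, Them5 and Olah were not well above background on both arrays of either group and were not tested.

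**Figure D3:**
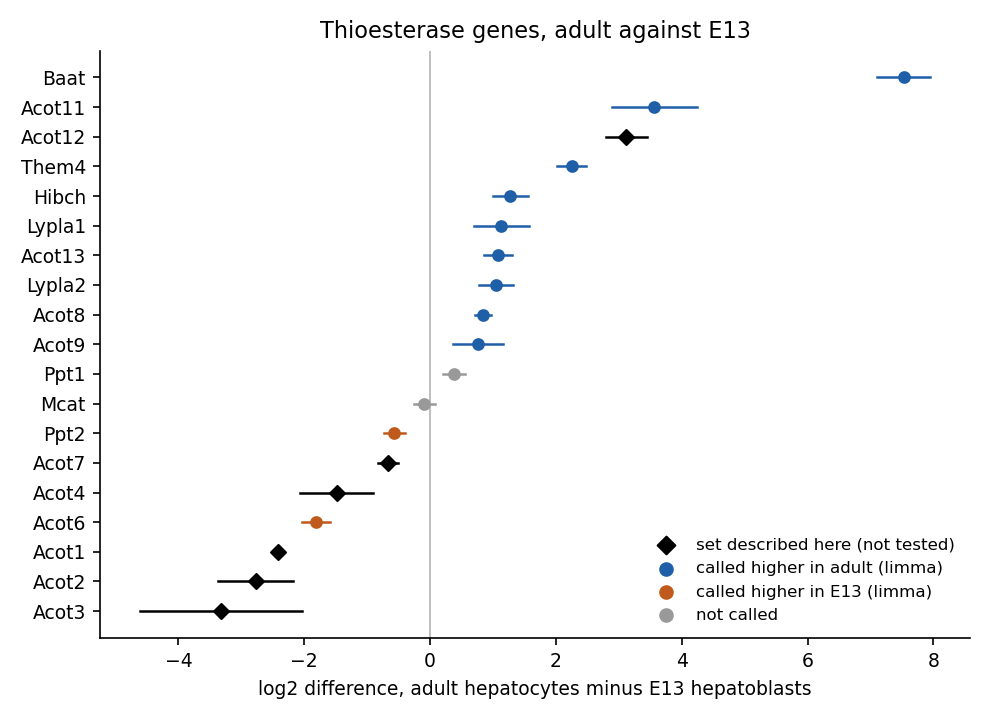
Log2 difference, adult minus E13 (horizontal axis), of the 6 chosen genes and the 13 other thioesterases tested, where a point is the difference of the group means and a line is the range of the 4 differences between single arrays. The 5 clustered genes measured (Acot1, Acot2, Acot3, Acot4 and Acot6), Acot7 and Ppt2 lie left of 0 with their whole range, and Baat lies furthest right.

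The genes around the cluster were also read, using probe positions in the array files on mm9. All genes other than the 6 were taken whose tested probe lay on chromosome 12 within 500 kb of the cluster's probes, which gave 21 genes or unnamed probes, Acot6 among them. By limma (Benjamini-Hochberg), 11 of the 21 were called higher at E13 and 4 higher in the adult, 52.4% and 19.0%, against 32.8% and 32.1% of all genes. Their median difference was -0.55. Without Acot6, 10 of 20 were called higher at E13, and the median was -0.18. The 10 still include an unnamed probe inside the cluster, described below, which may read an Acot transcript. The count of 11 became 17 with spike-in scaling, which left 1 call towards the adult. Of all 16422 genes, that scaling called 11373 towards E13 and 1981 towards the adult. Leaving out either E13 array lowered the count of 11, as it lowered the calls towards E13 over all genes.

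Called higher at E13 was also a probe without a gene name, 66.9 kb from the Acot2 probe and just beyond the Acot3 probe. It measured -0.33 and -0.17 at E13 and -5.56 and -3.12 in the adult, where only replicate 2 was well above background, so that the size is uncertain (fitted limma difference -4.09 ± 0.82 SE, Benjamini-Hochberg adjusted p = 0.0115). As for Acot3, adult replicate 1 was the lower. It lies on the plus strand between the Acot3 and Acot5 probes, nearest to Acot3, so it may read an Acot transcript and not a separate neighbour. Which transcript this probe reads was not tested.

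The others called higher at E13 were Papln (at least 2.33-fold, its adult arrays not being well above background), Dcaf4 of a ubiquitin ligase (-2.17), the oxygenase Riox1 (listed as 2410016O06Rik, -1.65), Coq6 of coenzyme Q synthesis (-1.42), Mideas (listed as C130039O16Rik, -1.03), the splicing factor Rbm25 (-0.82) and Zfp410 (-0.55). Fam161b and Bbof1 (listed as 2900006K08Rik), too dim in the adult to be well above background, were at least 1.09-fold and 1.15-fold higher at E13 by their brighter probe. Their second tested probes differed by -0.15 and -1.33 and gave no such bound. By the brighter probe both genes took the opposite sign, 0.24 and 0.20, under normexp. Genes called higher in the adult were Aldh6a1 of valine breakdown (2.67), Entpd5 (1.82), Zfyve1 (1.52) and the prostaglandin reductase Ptgr2 (1.45). Numb, Rnf113a2, Lin52, Abcd4 and a second unnamed probe were not called, with differences from 0.19 to 0.38. Genes called in opposite directions lay close together, as Dcaf4 and Zfyve1 on one side of the cluster and Coq6 and Entpd5 on the other. Without either E13 array in turn, Rbm25, Mideas, Zfp410 and Fam161b lost their calls, and so did the unnamed probe without E13 replicate 2 and Zfp410 without adult replicate 2.

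**Figure D4:**
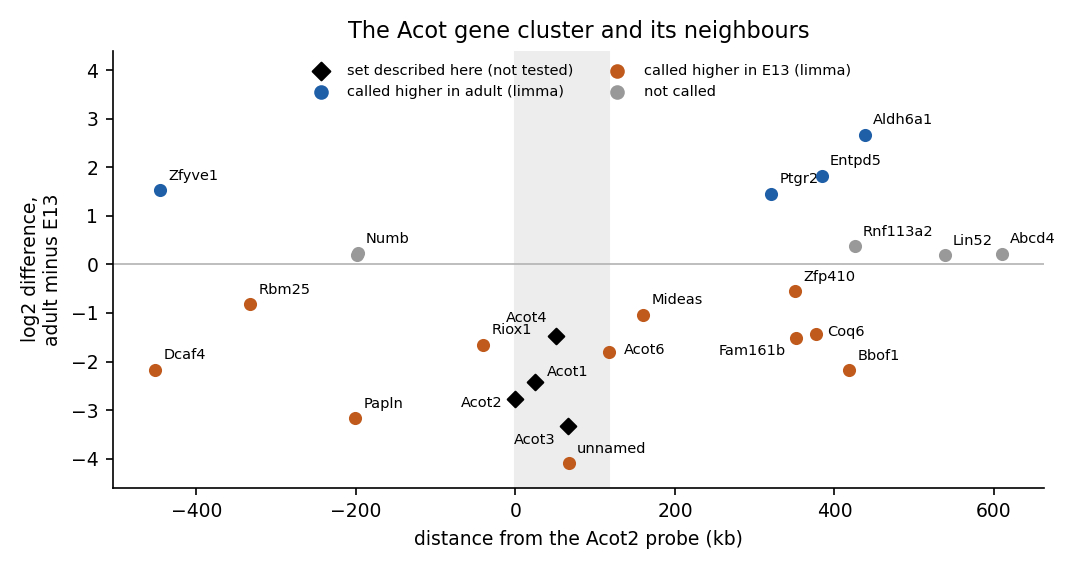
Log2 difference, adult minus E13 (vertical axis), against the distance of a gene's probe from the Acot2 probe in kb (horizontal axis), with the span of the cluster shaded and colours giving the limma call. Acot1, Acot2, Acot3, Acot4, Acot6 and an unnamed probe lie below 0 within the span, and genes called in either direction lie outside it.

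The enzymes that make acyl-CoA, the reverse of the thioesterase reaction, ran towards the adult in the main. Of 24 acyl-CoA synthetases, 19 were tested, and 14 were called higher in the adult (73.7%), 4 higher at E13 (21.1%) and 1 neither way (limma, Benjamini-Hochberg). The median difference was 1.85. Acsm5 was at least 295-fold higher in the adult and Acsm2 at least 14.5-fold, both being medium-chain enzymes not well above background at E13. Acsm1 differed by 6.85. Acss1, a mitochondrial acetyl-CoA synthetase, was at least 467-fold higher at E13, and Acsl4, which prefers arachidonate, had a difference of -0.20 and was not called. Spike-in scaling gave 9 calls towards the adult and 5 towards E13, with a median of 0.59. Probes well above background on all arrays left 2 calls towards E13.

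Carnitine acyltransferases and carriers, which take acyl groups into mitochondria, gave 5 calls towards the adult (62.5%) and 2 towards E13 (25%) among 8 genes, with a median of 1.22 (limma, Benjamini-Hochberg). Cpt1a, the entry step of long-chain oxidation in the liver, measured 1.54 and 1.44 at E13 and 5.02 and 5.41 in the adult, a difference of 3.72. Slc22a5 (2.30), the carnitine importer, and Crot (2.28), the peroxisomal octanoyltransferase, followed. Cpt1c was at least 1.73-fold higher at E13, a call that normexp did not keep, and Crat, the acetyltransferase, differed by -0.12 and was not called. Spike-in scaling gave 3 calls towards the adult and 3 towards E13, and a median of -0.032.

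Acyl-CoA binding and transport genes gave 9 calls towards the adult (64.3%) and 3 towards E13 (21.4%) among 14 tested of 16, with a median of 1.59 (limma, Benjamini-Hochberg). Scp2, which binds sterols and acyl-CoA in peroxisomes, differed by 3.45, the fatty acid binding protein Fabp1 by 2.78 and Abcd3, a peroxisomal importer, by 2.74. Acbd7 was at least 4.18-fold higher at E13. Fabp4, the fatty acid binding protein of fat and macrophages, differed by 1.90 and Abcd4 by 0.22, and neither was called, though Fabp4 was called higher in the adult without E13 replicate 1. Spike-in scaling gave 5 calls in each direction, with a median of 0.33, and probes well above background on all arrays left 1 towards E13.

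Genes that make or break down coenzyme A, the other product of the thioesterases, gave 11 calls towards the adult (73.3%) and 2 towards E13 (13.3%) among 15, with a median of 1.39 (limma, Benjamini-Hochberg). Nudt7, a peroxisomal hydrolase of coenzyme A, differed by 5.73. The pantetheinases Vnn3 and Vnn1, which recycle its precursor, differed by 6.42 and 2.97, Vnn3 being well above background on 1 of 2 E13 arrays. Pank4 (-0.72) was called higher at E13, and Pank3 (0.32), a pantothenate kinase, and Slc5a6 (-0.84), a vitamin transporter, were not called. Without either E13 array in turn, 0 genes of this list were called towards E13 by limma, Pank4 included. Slc5a6 was called higher at E13 without adult replicate 2. Spike-in scaling gave 7 calls towards the adult and 5 towards E13, with a median of 0.14.

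A list of PPAR alpha, its partner Rxra, coactivators and known targets had 29 genes tested of 30. It gave 22 calls towards the adult (75.9%), 3 towards E13 (10.3%) and 4 neither way, with a median of 2.16 (limma, Benjamini-Hochberg). The list held none of the thioesterases, and Cpt1b and Vnn1 stood on another list too. Ppara, the receptor, measured 2.83 and 2.48 at E13 and 4.34 and 5.31 in the adult, a difference of 2.17 ± 0.37 (SE, limma, Benjamini-Hochberg adjusted p = 0.00689). Its partner Rxra differed by 3.03. Both were singled out after their values were seen, and under spike-in scaling Ppara stood at 0.92 and was not called. Ppara was higher in the adult, while Acot1, Acot2, Acot3, Acot4 and Acot6 were higher at E13 and Acot5 was not tested. A link between the receptor and these genes was not tested.

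Among the targets, the fatty acid hydroxylases Cyp4a14 and Cyp4a12b were at least 1241-fold and at least 441-fold higher in the adult. Cyp4a12a differed by 9.97, with 1 of 2 E13 arrays well above background. Aqp3, a water and glycerol channel, was at least 11.1-fold higher at E13. The other 2 genes of the list called higher at E13 were the coactivator Ppargc1a, at 2.10 and 2.08 against -0.04 and 1.06 (-1.58 ± 0.39 SE, limma, Benjamini-Hochberg adjusted p = 0.0221), and Cpt1b, the muscle form of the carnitine enzyme (-1.79). The Ppargc1a call was lost without either E13 array. Pdk4, a brake on glucose oxidation, and Acadl, a long-chain dehydrogenase, differed by -1.76 and -0.47 and were not called, though Pdk4 was called higher at E13 without adult replicate 1. Calls of this list towards E13 numbered 7 with spike-in scaling, beside 15 towards the adult, and 5 with normexp.

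**Figure D5:**
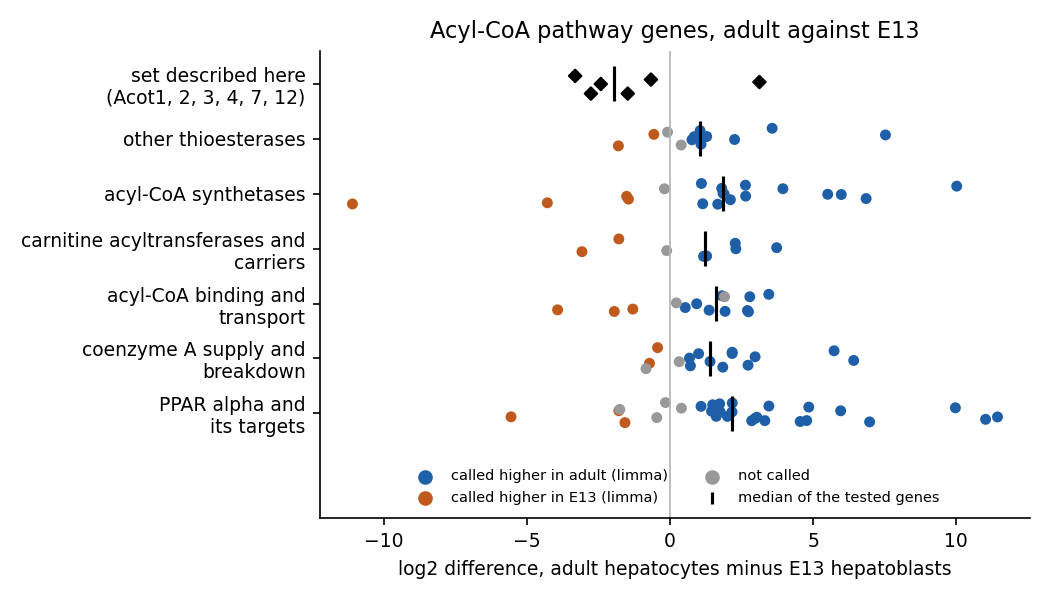
Log2 difference, adult minus E13 (horizontal axis), of every tested gene of the 6 pathway lists, coloured by its limma call, with the chosen genes in the top row and a bar at each median. The medians of the 6 lists lie between 1.05 and 2.16 under this 75th percentile scaling (-0.21 to 0.91 with spike-in scaling), and 5 of the 6 chosen genes lie below 0.

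The labelled cell types were checked against their markers, and markers of other cell types moved with the groups. Alb, the albumin of both cell types, measured 9.68 and 9.79 at E13 and 10.63 and 10.94 in the adult. Afp, alpha-fetoprotein, the fetal counterpart of albumin, measured 9.25 and 9.54 at E13 and -1.68 and -1.57 in the adult, so the arrays matched their labels. Across genes, the Pearson correlation was 0.991 between the E13 arrays, 0.989 between the adult arrays and 0.727 to 0.742 between groups, and no spot was saturated. The number of probes well above background was 23040 to 23766 at E13 and 19299 to 20040 in the adult. The 12 hepatocyte and hepatoblast markers had a summed level of 2385 to 2604 times the 75th percentile at E13 and 3801 to 4327 in the adult. Cyp2e1 of mature hepatocytes was not well above background at E13, and the hepatoblast marker Dlk1 was well above background on 1 of 2 adult arrays. All 7 stellate and mesenchymal markers tested of 8 were called higher at E13 by limma, and their summed level was 34.3 to 53.7 at E13 and 8.16 to 9.10 in the adult, where 3 of 8 were not well above background on either array. Erythroid markers summed to 46.7 to 193 at E13 and 21.3 to 28.8 in the adult (of 6 tested of 8, 3 were called higher at E13 and 1 in the adult). Most of the adult erythroid sum came from Alas2, at 0.76 and -0.97 at E13 and 4.69 and 4.34 in the adult. The globins Hba-a1 and Hbb-b1 went the other way, with differences of -6.17 and -6.57. Adult stellate and bile duct sums likewise rested mostly on Acta2 and Spp1, so the sums give no share of cells. Kupffer cell markers summed to 0.539 to 1.204 at E13 and 4.23 to 5.17 in the adult (5 of 7 called higher in the adult), and endothelial markers to 0.423 to 1.16 and 2.49 to 2.55 (2 of 5 tested). Bile duct markers summed to 0.557 to 0.657 and 2.43 to 3.93 (1 of 4 tested called higher in the adult), and other haematopoietic markers to 0.247 to 1.02 and 0.203 to 0.219 (3 tested of 6). The part of these cell types in the thioesterase values was not tested.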

How the data were processed

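RNA of 2 E13 hepatoblast and 2 adult hepatocyte samples, grouped by their labels, was read on 4 one-colour arrays of 1 slide. The deposited intensity of each spot is the processed, background-subtracted signal of Agilent Feature Extraction 10.7.3.1, per the file headers. The deposited log2 values of the authors' table tracked log2 intensity (r = 1 on each array) after subtraction of a constant, 9.07144 on the first array, where the 75th percentile computed here was 9.06909; how the authors made them was not given in the sources used here. That scale was used here, computed from the intensities. The 1639 control spots and 18 probes marked as outliers were left out.

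R 4.3.3 with limma 3.58.1 (lmFit, eBayes; 2 residual and 2.55 prior degrees of freedom) compared the groups over 16422 genes, each by its brightest probe well above background on both arrays of at least 1 group. Genes were called at a Benjamini-Hochberg adjusted p under 0.05, and the procedure was tested on simulated data. The median standard error was 0.18, and precision is limited by the number of arrays. A gene not well above background in the lower group has a bound: the higher mean minus the mean, per array, of its value or, if larger, the array's lowest value well above background.

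The 6 genes and the lists were chosen with earlier results of these data known. Named were all thioesterases and neighbours (1 counted neighbour is not reported here), and of each list the 3 largest calls in its more frequent direction, 1 in the opposite direction and 2 uncalled genes in list order, plus for each of the 6 genes the 2 nearest patterns. Probe positions are on mm9 and promoters on GRCm38.p6 (RefSeq). Probes of the 6 genes differed from every other probe by at least 23 edits; cross-hybridisation to transcripts was not tested. Alternatives were normexp (offset 50), quantile, detected-probe and spike-in scaling, the deposited log2 values, other filters, the mean of probes, eBayes with trend and robust, a replicate block and leaving out each array.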

Additional observations from a re-analysis of the deposited data

How the results depend on the processing

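No value of the 6 genes changed sign under any alternative run, but 34 of the 89 values were identical to the value given, since settings such as a block or another variance model leave a difference of means unchanged. Of the rest, 44 moved by less than the spread between replicates and 11 by more. Many of the 44 were no real check, as they came from leaving out an array or from the deposited values. Leaving out an array of a pair always shifts a difference by less than the replicate spread. It also cannot turn the sign where the groups do not overlap. The deposited values are the same intensities less nearly the same constant. Acot3 has no value with only probes well above background on all arrays. Of 961 values of other named genes, 884 kept their direction and side of the threshold and 16 changed sign.

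Spike-in scaling shifted all differences by -1.25 and gave 1981 genes called higher in the adult and 11373 at E13 (14.8% of calls towards the adult, against 49.5%). Counts towards the adult were then 3 for the other thioesterases, 9 for synthetases, 3 for carnitine genes, 5 for binding and transport, 7 for coenzyme A genes and 1 for neighbours. Those towards E13 were 4 for the other thioesterases, 5 for synthetases, 3 for carnitine genes and 5 for binding and transport. They were 5 for coenzyme A genes, 7 for the PPAR alpha list and 17 for neighbours. Signs turned for Acot8 (-0.41), Acot9 (-0.49), Acot13 (-0.17), Ppt1 (-0.87), Lypla1 (-0.12), Lypla2 (-0.21), Abcd4 (-1.04), Pank3 (-0.94), the unnamed probe A_52_P517905 (-1.05), Numb (-1.03), Rnf113a2 (-0.88), Lin52 (-1.07) and Alb (-0.20, and -0.24 under quantile normalization).

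Normexp gave 1 carnitine gene and 5 genes of the PPAR alpha list called towards E13. It turned Fam161b (0.24) and 2900006K08Rik (0.20), and put 59.5% of calls towards the adult. Without a filter on dim probes 14614 genes were called higher in the adult and 1 coenzyme A gene at E13. With probes well above background on all arrays, which leaves fewer genes, calls towards E13 were 2 for synthetases, 1 for carnitine genes, 1 for binding and transport and 7 for neighbours. The mean of a gene's probes left 1 coenzyme A gene towards E13. The cause of these changes was not tested.

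Leaving out 1 array gave 5 to 9 other thioesterases towards the adult and 1 to 2 towards E13, 0 to 2 coenzyme A genes towards E13 and 6 to 11 neighbours towards E13. With the replicate number as a block, 4691 and 4844 genes were called towards adult and E13, with 1 other thioesterase and 1 coenzyme A gene towards E13. The labels do not pair the samples, and deviations of same-numbered samples correlated at -0.156. The crossed pairing, added after the data were examined, gave 5337 and 5431, with 1 coenzyme A gene towards E13. All arrays share 1 slide and 1 scan time, so neither could be a block.

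Signal over background limits Acot3 and the dimmer Acot2 in the adult, and 2 arrays a group limit every value.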
